A study of Mus musculus with 2 samples.

Results

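The transcripts described here encode 9 enzymes of amino acid breakdown in hepatocytes, out of 19059 genes measured by single-cell RNA-Seq in mouse liver. Members were chosen by name as Hal, Sds, Gldc, Etnppl, Hpd, Gnmt, Tat, Tdo2 and Aspg, and all 9 were found once in both count matrices. The study asked how liver cells respond to loss of AEG-1, the protein encoded by Mtdh, from myeloid cells under a high fat and high sugar diet (HF/HSD). There was 1 library for each genotype. The library labelled AEG-1DMAC came from mice in which a floxed AEG-1 allele was removed by Cre under the lysozyme M promoter, which is active in macrophages, neutrophils and other myeloid cells, and the library labelled AEG-1fl/fl came from floxed littermates without deletion. All of these mice ate HF/HSD from 7 weeks of age and were 27 weeks old at collection, so that the diet was shared by both libraries and no control diet library was analysed here. Whether a library pooled several livers, and the sex of the mice in each, was not given in the sources used here. Hepatocytes of both libraries held transcripts of Y-linked genes, Ddx3y at 54.5 and 48.7 CPM (counts per 1000000 counts of the class) and Uty at 20.9 and 19.5 CPM, so that each held cells of male mice.

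Amino acids in excess of the needs of protein synthesis are broken down mostly in hepatocytes, which pass the nitrogen to urea and the carbon to glucose, ketone bodies or the citric acid cycle. Hepatocytes near the portal vein (periportal, PP) receive blood rich in nutrients and oxygen and are known for glucose production, urea synthesis and amino acid breakdown, whereas those near the central vein (pericentral, PC) are known for drug metabolism and glutamine synthesis. Several enzymes of these pathways, Tat and Tdo2 among them, are classic targets of glucocorticoids and glucagon.

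The matrices held 2581 barcodes with 79589511 counts in the library labelled AEG-1DMAC and 3535 barcodes with 90440089 counts in the library labelled AEG-1fl/fl, of which 2571 and 3508 were kept, and 10 barcodes occurred in both. Cells were assigned to classes by summed marker counts, and doublets were not removed. This gave 1072 hepatocytes in the first library (median depth 32100 counts) and 1033 in the second (32140 counts). Hepatocytes took 41.7% of the kept cells in the first library and 29.4% in the second, and macrophages took 11.7% and 20.7%. None of the 10 hepatocyte markers was among the 10 genes that led hepatocytes by fold over the other classes, which were genes such as Mlxipl, Plin4 and Nr1i3 in the first library and Plin4, G6pc and Cyp7a1 in the second, and the markers were found at a high share in other classes, as given below. Mtdh in macrophages went against the labels, with 112 CPM (exact Poisson 95% interval 101 to 124) in the library labelled as the deletion and 28.5 CPM (24.5 to 32.9) in the library labelled as its control, and whether the probes for Mtdh lie in the removed part was not given. Directions between libraries below are therefore directions between labels. With 1 library for each label no test between genotypes was possible, and every interval covers counting error only. Probes differ in efficiency, so that levels were compared within a gene and never between genes.

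The promoter letters of 3 enzymes are shown because these genes stand for the patterns below: Hal for the steep PP gradient, Gnmt for the largest difference between libraries, and Tat for a hormone target with a shallow gradient. Each sequence holds the 250 bases before the RefSeq start on the gene's own strand (GRCm38.p6), 5′ to 3′, with matches to the searched motifs in capitals. Hal lies at chr10:93488518-93488767 on the plus strand, Gnmt at chr17:46729166-46729415 on the minus strand, and Tat at chr8:109990186-109990435 on the plus strand.
Hal: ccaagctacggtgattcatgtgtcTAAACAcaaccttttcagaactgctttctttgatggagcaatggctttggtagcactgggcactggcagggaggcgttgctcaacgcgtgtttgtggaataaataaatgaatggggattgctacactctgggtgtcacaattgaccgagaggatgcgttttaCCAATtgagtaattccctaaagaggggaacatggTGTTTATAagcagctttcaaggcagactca
Gnmt: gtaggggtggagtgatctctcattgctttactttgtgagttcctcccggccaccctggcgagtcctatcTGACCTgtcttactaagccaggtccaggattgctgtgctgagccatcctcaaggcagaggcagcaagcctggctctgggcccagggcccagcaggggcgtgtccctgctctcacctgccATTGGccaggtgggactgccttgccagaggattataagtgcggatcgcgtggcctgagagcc
Tat: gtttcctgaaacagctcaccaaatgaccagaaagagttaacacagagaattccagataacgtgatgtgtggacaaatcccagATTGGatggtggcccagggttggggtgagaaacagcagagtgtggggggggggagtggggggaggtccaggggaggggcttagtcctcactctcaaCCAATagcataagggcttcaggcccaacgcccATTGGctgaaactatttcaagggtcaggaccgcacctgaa
Motifs were searched on both strands by their letters. The core promoter was represented by TATAAA, the element named after this sequence, and by CCAAT, the site of the trimeric factor NF-Y. Hormone response was represented by AGAACA, the core bound by the glucocorticoid receptor, and by TGACG, the core of the cAMP response element. Factors rich in liver were represented by TGTTTA for forkhead proteins and by AGGTCA for nuclear receptors. The forkhead core and the TATA box overlap in Hal, where they share letters 25 to 28 bases before the start. RefSeq promoters were found for 8 of the 9 enzymes, the entry for Sds being missing, and Etnppl had 2 starts. CCAAT was the motif most shared, in Hal, Gldc, Gnmt, Tat and Tdo2, that is in 5 of 8 genes, beside 33.8% of all 32851 promoter windows of this length. TATAAA was present in Hal and Tdo2 (12.4% of all windows), AGGTCA in Gnmt and Tdo2 (14.0%) and TGTTTA in Hal (12.0%). No window of the enzymes held AGAACA (16.1% of all windows) or TGACG (17.8%). These matches describe letters in a short window and say nothing of binding.

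All 9 enzymes had their highest level in hepatocytes in both libraries, over 7 cell classes with enough counts, which leave out a group of low-marker cells described below. Among 11628 genes tested in the same way, 7.9% had their highest level in hepatocytes in both libraries. The members were named as enzymes of hepatocytes, with earlier results of these data in view, so that their count is a description. Gnmt, which transfers a methyl group from S-adenosylmethionine to glycine, was at 1840 CPM in hepatocytes, 1057 in macrophages and 852 in endothelial cells of the library labelled AEG-1DMAC. In the other library it was at 862, 358 and 233 CPM. Hal, which starts histidine breakdown by removing ammonia, was at 152 CPM in hepatocytes, 62.3 in macrophages and 51.2 in endothelial cells of the first library, and at 94.0, 34.1 and 27.0 CPM in the second. Hepatocytes stood above both other classes in each library for both genes.

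The levels outside hepatocytes stood in a similar range to those of the 10 hepatocyte markers. Whether these classes make any of the markers themselves was not tested. In macrophages the median over the 9 enzymes was 46.0% of the hepatocyte level in the library labelled AEG-1DMAC and 35.5% in the library labelled AEG-1fl/fl, beside 56.2% and 39.0% for 10 hepatocyte markers such as Alb and Apoa1. In endothelial cells the medians were 35.6% and 22.1% for the enzymes beside 45.6% and 28.3% for the markers, and in stellate cells 50.1% and 42.7% beside 66.3% and 55.5%. At these levels no expression of the enzymes was read in any class but hepatocytes. In these 3 classes the share was higher in the library labelled AEG-1DMAC for enzymes and markers alike, whereas in cholangiocytes it was lower, with an enzyme median of 26.6% against 33.9% and a marker median of 28.4% against 34.96%. The part of RNA free in solution and of doublets in these shares was not tested. Aspg was the enzyme with the lowest share in stellate cells of the first library, at 17.0% (12.6 to 22.4), and in endothelial cells of the second, at 8.08% (4.52 to 13.3). The small lymphocyte classes gave wide intervals, and that of Gldc in T and NK cells of the first library, at 84.1% (53.9 to 125) from 24 counts, passed the hepatocyte level, as did those of Gldc in B cells of the first library (57.7%, 24.9 to 114) and Etnppl in T and NK cells of the second (42.9%, 11.7 to 110.1).

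**Figure D1:**
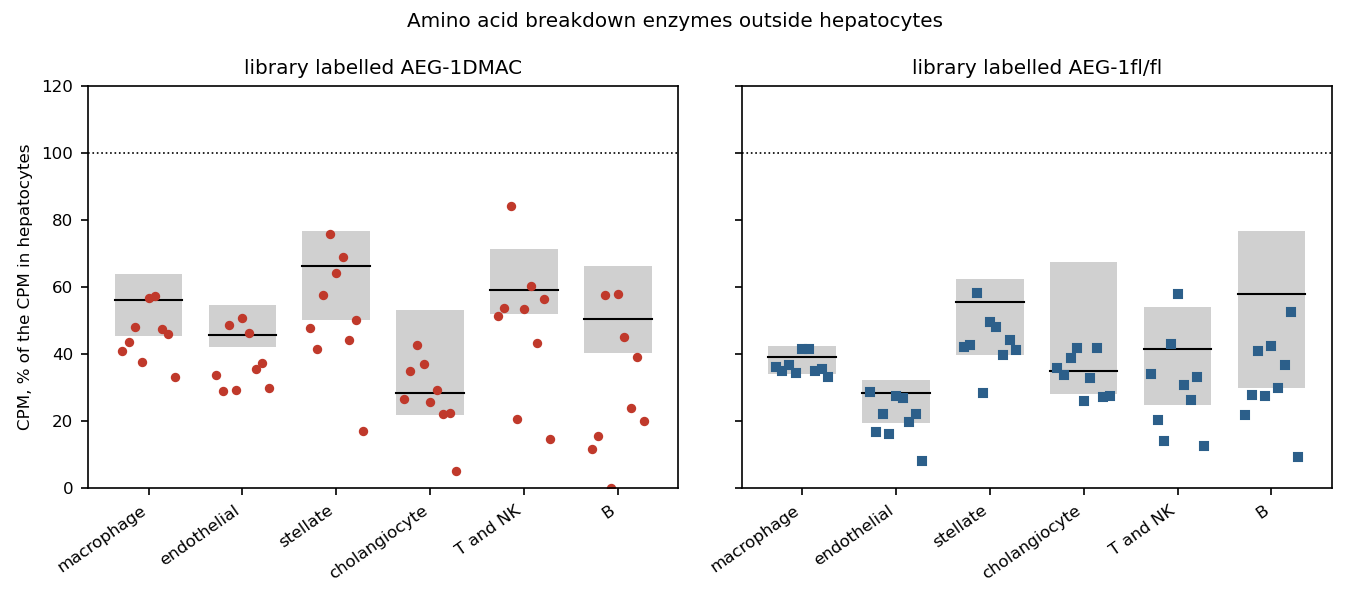
Level of the 9 enzymes in 6 cell classes as a percentage of their CPM in hepatocytes of the same library, 1 panel for each library, with each point 1 enzyme in the order Hal, Sds, Gldc, Etnppl, Hpd, Gnmt, Tat, Tdo2, Aspg from left to right. Grey bars span the lowest to the highest of 10 hepatocyte markers and the black line is their median. All points lie below the dotted line at 100%, and in macrophages they lie between 33.1% and 57.4% in the first library and between 33.1% and 41.5% in the second.

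At equal depth hepatocytes also stood above macrophages and endothelial cells in the share of cells with a count of Hal or Gnmt. With cells of at least 4000 counts thinned to that number, which left out no hepatocyte but 99 of 301 and 260 of 727 macrophages, Hal was counted in 33.1% of hepatocytes (355 of 1072) in the library labelled AEG-1DMAC and in 22.1% (228 of 1033) in the library labelled AEG-1fl/fl. Macrophages, which should lack it, had a Hal count in 13.9% (28 of 202) and 7.28% (34 of 467) of the deeper cells that remained. Before thinning, over all cells of each class, the shares were 70.8% and 58.8% in hepatocytes and 23.6% and 13.3% in macrophages, whose median depths were 5752 and 5584 counts. Gnmt was counted in 98.0% and 83.3% of hepatocytes and in 79.7% and 46.2% of macrophages after thinning. In the 104 and 122 endothelial cells that remained, Hal was counted in 21.2% and 7.38% and Gnmt in 82.7% and 42.6%. The order of macrophages and endothelial cells by CPM was thus not kept for Hal, nor for Gnmt in the first library.

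Hepatocytes were ordered in each library by the counts of Cyp2e1, a PC cytochrome P450, against those of Cyp2f2, a PP one, and were divided into 3 zones of equal cell number, PP, midlobular and PC. Cyp2e1 was at 1038, 4029 and 6659 CPM in these zones of the library labelled AEG-1DMAC and at 640, 2623 and 5197 CPM in those of the library labelled AEG-1fl/fl. Hal, Sds, Gldc, Etnppl and Aspg, that is 5 of 9 enzymes, were at least 2-fold higher in the PP than in the PC zone in both libraries, beside 0.879% of 9675 genes tested. None of the 9 was at least 2-fold higher in the PC zone in both libraries, beside 1.93% of genes. These counts are descriptions too, since the members were named with earlier results in view and Hal is among the study's own PP markers. The midlobular zone had the shallowest cells, with a median of 25450 and 19070 counts. In midlobular cells thinned to 10000 counts (301 and 250 cells, with 56 and 94 shallower ones left out), the mean of Sds was 4.06 counts per cell in the first library and 1.66 in the second, and that of Gnmt 17.0 and 6.47, so that both stayed higher in the first at equal depth.

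Among the 9 enzymes Sds and Hal, of serine and histidine breakdown, showed the steepest order at full depth. Hal (chr10:93488768-93519304) was at 282 CPM in the PP zone, 126 in the midlobular zone and 22.8 in the PC zone of the library labelled AEG-1DMAC, and at 195, 49.0 and 11.8 CPM in the library labelled AEG-1fl/fl. The PP level was 12.4-fold the PC level (95% interval 11.3 to 13.6) in the first library and 16.4-fold (14.6 to 18.6) in the second, where its log2 value of 4.04 became 3.42 with cells thinned to 10000 counts. At that depth Etnppl was above Hal in the second library, at 3.72. In the first it was below, at 3.015 beside 3.28 for Hal. Over 9 bins of equal cell number Hal fell from 349 CPM in the most PP bin to 10.4 CPM in the most PC bin of the first library, and from 215 to 8.07 CPM in the second. Sds (chr5:120476526-120483932), which turns serine into pyruvate and ammonia, was at 1023, 364 and 53.3 CPM in the zones of the first library and at 1012, 164 and 31.9 CPM in those of the second. Its PP level was 19.2-fold (18.1 to 20.4) and 31.8-fold (29.6 to 34.1) its PC level, and the log2 value of the first library, 4.26, became 3.52 when cells were ordered by other zone markers, which are given with Aspg below. Sds was thus similar in both libraries at the PP end, while it was lower in the library labelled AEG-1fl/fl in the middle of the order.

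Glycine and phosphoethanolamine enzymes were PP as well. Gldc (chr19:30098447-30175429, minus strand), the decarboxylating subunit of the mitochondrial glycine cleavage system, was at 204, 107 and 44.5 CPM in the PP, midlobular and PC zones of the library labelled AEG-1DMAC. In the library labelled AEG-1fl/fl it was at 140, 55.4 and 18.3 CPM. The ratio of PP to PC was 4.58 (4.26 to 4.92) and 7.66 (6.94 to 8.47). Etnppl (chr3:130617448-130637521), which splits phosphoethanolamine, a breakdown product of membrane lipids and not itself an amino acid of proteins, was at 81.7, 26.9 and 8.72 CPM in the first library and at 50.5, 11.95 and 4.59 CPM in the second. It was the enzyme with the fewest counts, 47 and 48 in the most PC bin, and its ratios of 9.37 (8.04 to 10.98) and 11.02 (9.08 to 13.5) had overlapping intervals. Both genes were higher in the library labelled AEG-1DMAC in each zone.

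Gnmt (chr17:46725664-46729168, minus strand) was PP to a smaller degree. It was at 2355, 1720 and 1340 CPM in the PP, midlobular and PC zones of the library labelled AEG-1DMAC and at 1286, 686 and 508 CPM in the other library, ratios of 1.76 (1.73 to 1.78) and 2.53 (2.48 to 2.58). The lowest zone of the first library, its PC zone, was above the highest zone of the second. The same held for Hpd among the 9 enzymes, and for no other.

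The tyrosine and tryptophan enzymes were less graded, and none was past 2-fold in both libraries. Tat (chr8:109990437-109999803), which removes the amino group of tyrosine, was at 1393, 1390 and 1018 CPM in the zones of the library labelled AEG-1DMAC and at 1317, 845 and 614 CPM in those of the library labelled AEG-1fl/fl. Its PP level was 1.37-fold (1.34 to 1.39) and 2.15-fold (2.10 to 2.19) its PC level. Tdo2 (chr3:81957090-81976202, minus strand), which opens the ring of tryptophan at the entry of the kynurenine pathway, was at 1081, 819 and 800 CPM in the first library and at 880, 587 and 580 CPM in the second. Its ratios were 1.35 (1.32 to 1.38) and 1.52 (1.49 to 1.55). For Tdo2 the midlobular and PC zones were close to each other in each library. Hpd (chr5:123171807-123182727, minus strand), the dioxygenase that acts after Tat in tyrosine breakdown, was at 735, 873 and 951 CPM in the first library, lowest at the PP end, and at 597, 459 and 484 CPM in the second, highest at the PP end. The PP to PC ratio of Hpd thus lay on opposite sides of 1. It was 0.773 (0.757 to 0.789) in the first library and 1.23 (1.20 to 1.26) in the second. Over all genes the median log2 ratio of PP over PC was -0.26 and -0.18. In the first library 33.6% of genes had a lower ratio than Hpd, and in the second 94.45%. Over the 9 bins of the second library Hpd did not fall evenly, with 599 CPM in bin 1, 312 in bin 6 and 539 in bin 9.

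Asparagine breakdown had a different shape. Aspg (chr12:112106679-112127559), which hydrolyses asparagine to aspartate and ammonia, was at 214, 238 and 86.7 CPM in the PP, midlobular and PC zones of the library labelled AEG-1DMAC and at 225, 160 and 58.4 CPM in the other library. Among the 9 bins its level was highest in bin 4 of the first library, at 302 CPM and 1.53-fold the most PP bin, and in bin 3 of the second, at 245 CPM and 1.19-fold the most PP bin. Aspg was the enzyme whose gradient depended most on how cells were ordered. Ordered by 7 other PC against 7 other PP markers, such as Glul and Pck1, its log2 ratio of PP over PC was 3.19 and 4.14, in place of 1.30 and 1.95. With cells thinned to 10000 counts it was 0.89 in the library labelled AEG-1DMAC, under the 2-fold line, and 1.61 in the library labelled AEG-1fl/fl.

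**Figure D2:**
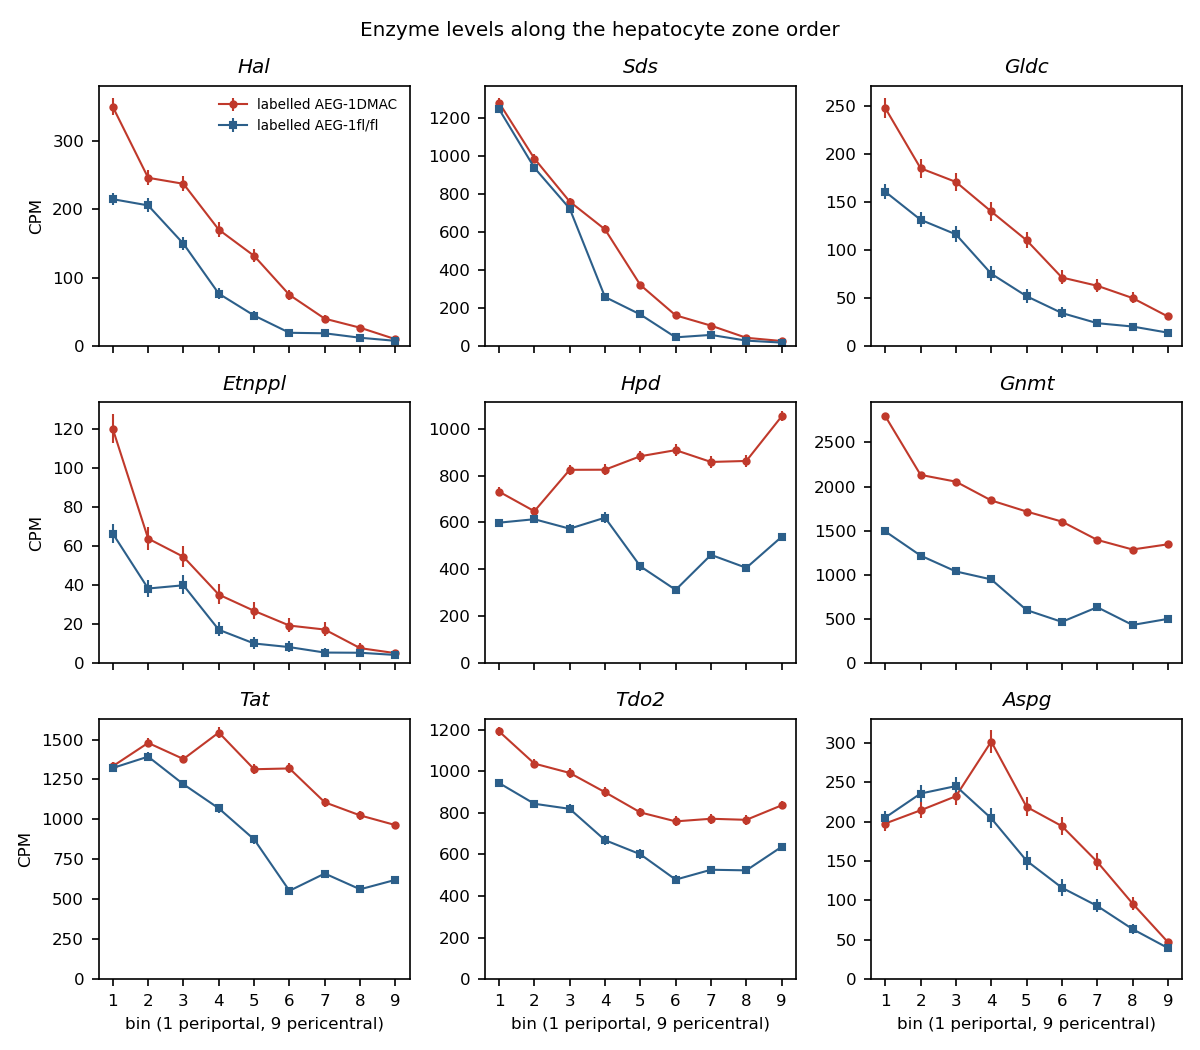
CPM of each enzyme in 9 bins of hepatocytes from the most PP (bin 1) to the most PC (bin 9) end of the order, 1 panel for each gene, with circles for the library labelled AEG-1DMAC, squares for the library labelled AEG-1fl/fl and bars for exact Poisson 95% intervals. Hal, Sds, Gldc and Etnppl are highest in bin 1 and lowest in bin 9 of both libraries, Aspg peaks in bin 4 and bin 3, and Hpd is highest in bin 9 of the first library and in bin 4 of the second.

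Over all hepatocytes each of the 9 enzymes was higher in the library labelled AEG-1DMAC than in the library labelled AEG-1fl/fl. The median log2 ratio of the 9 was 0.69, beside 0.01 over 10683 genes, of which 80% lay between -0.34 and 0.33. Hal, Gldc, Etnppl, Hpd and Gnmt, that is 5 of 9, were at least 1.5-fold higher, beside 3.55% of all genes, and none was at least 1.5-fold lower, beside 3.5%. The members were named with earlier results of these data in view, so that this count is a description.

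Gnmt differed most, with 1840 CPM in the library labelled AEG-1DMAC and 862 CPM in the library labelled AEG-1fl/fl, a ratio of 2.13 (2.11 to 2.16). Etnppl was at 42.1 and 24.8 CPM, 1.70-fold (1.59 to 1.81) higher in the first. Gldc was at 124 and 75.5 CPM, a ratio of 1.64 (1.58 to 1.70). These 3 enzymes of methyl group, phosphoethanolamine and glycine use were followed by the entry enzyme of histidine breakdown. Hal was at 152 and 94.0 CPM, a ratio of 1.61 (1.56 to 1.67), and Hpd at 846 and 525 CPM, a ratio of 1.61 (1.59 to 1.63). The intervals of Etnppl, Gldc, Hal and Hpd overlapped in this order of ratios, whereas Gnmt stood apart from them. Tat and Tdo2 differed less over all hepatocytes, although the log2 ratio of Tat, 0.42, became 0.60 without the tenth of hepatocytes with the most counts. Tat was at 1266 and 948 CPM (1.33-fold, 1.32 to 1.35) and Tdo2 at 915 and 703 CPM (1.30-fold, 1.28 to 1.32). Aspg followed at 178 and 148 CPM (1.20-fold, 1.17 to 1.24) and Sds at 516 and 458 CPM (1.13-fold, 1.11 to 1.15).

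The log2 ratio between libraries was larger outside the PP zone for all 9 enzymes, although the intervals of Etnppl overlapped between the PP zone (0.59 to 0.80) and the PC zone (0.58 to 1.28). Their median log2 ratio was 0.30 in the PP zone, 0.95 in the midlobular zone and 0.93 in the PC zone, beside -0.05, 0.04 and 0.03 over all genes measured in each. Sds was at 1023 and 1012 CPM in the PP zone, with a log2 ratio of 0.02 (-0.01 to 0.04), and at 364 and 164 CPM in the midlobular zone, with a log2 ratio of 1.16 (1.08 to 1.23). Tat went from a log2 ratio of 0.08 (0.06 to 0.10) in the PP zone to 0.73 (0.70 to 0.76) in the PC zone. Aspg was the enzyme that was lower in the library labelled AEG-1DMAC in the PP zone, at 214 against 225 CPM and a log2 ratio of -0.08 (-0.13 to -0.02), while it was higher in both other zones, at 0.57 in each. Gnmt was higher throughout, with log2 ratios of 0.87, 1.32 and 1.40 from PP to PC. The zones did not hold the same mixture, since Cyp2e1 in the PP zone was at 1038 CPM in the first library and 640 CPM in the second. Cyp2f2, the PP gene that set the order, was lower in the first library in the PP zone, at 1342 and 1618 CPM. Outside that zone it was higher, at 563 and 420 CPM in the midlobular and 64.1 and 30.8 CPM in the PC zone. The part of this mixture in the larger enzyme ratios outside the PP zone was not tested. With zone limits common to both libraries and the zones weighted equally, the median log2 ratio over the 9 enzymes was 0.73. That value covers all zones together.

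**Figure D3:**
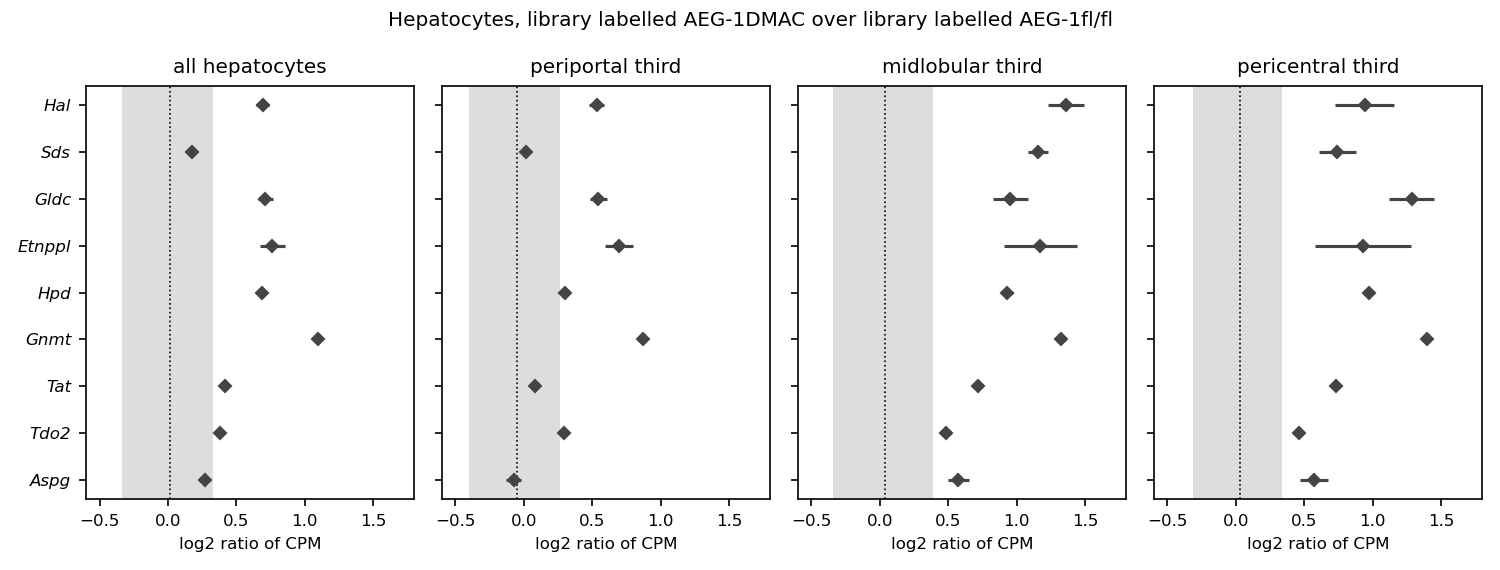
Log2 ratio of CPM in the library labelled AEG-1DMAC over the library labelled AEG-1fl/fl for each enzyme, in all hepatocytes and in the PP, midlobular and PC zones, with exact binomial 95% intervals (counting error only, 1 library for each label). The grey band spans the 10th to the 90th percentile of all genes and the dotted line is their median. Hal, Gldc, Etnppl, Hpd, Gnmt and Tdo2 are outside the band in every panel, and Sds moves from 0.02 in the PP zone to 1.16 in the midlobular zone.

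The same direction was seen for Gnmt in other cell classes. Gnmt was 2.95-fold (2.80 to 3.11) higher in macrophages and 3.06-fold (2.85 to 3.28) higher in stellate cells of the library labelled AEG-1DMAC. The share of hepatocyte markers in these classes was also higher in that library. These values are therefore not added to the hepatocyte comparison, and the part of hepatocyte RNA in them was not tested. Aspg in stellate cells went the other way, at 30.2 CPM in the library labelled AEG-1DMAC and 61.0 CPM in the library labelled AEG-1fl/fl, from 50 and 190 counts.

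Single hepatocytes of a zone differed widely in some of these enzymes. In PP cells thinned to 10000 counts, Sds had a mean of 9.18 counts and a 10th to 90th percentile range of 1 to 19.8 in the library labelled AEG-1DMAC (323 cells), and a mean of 9.07 and a range of 0 to 19 in the library labelled AEG-1fl/fl (305 cells). Aspg had a mean of 2.07 and 2.28 counts, with no count in 43.0% and 30.5% of these cells and 24 and 21 counts in its highest cells. Its variance was 6.45 and 4.65 times its mean. This ratio was 7.69 and 7.11 for Sds, 6.33 and 9.45 for Tat and 5.22 and 5.24 for Gnmt. It was 3.01 and 2.69 for Tdo2, 2.25 and 3.44 for Hpd, 2.15 and 3.18 for Hal and 1.30 and 1.21 for Gldc. Since the ratio depends on the mean, it was compared between libraries within a gene and not between genes. The mean also differed between libraries, as for Gnmt at 22.7 and 12.8 counts, which limits that comparison too. In the PP zone Tat, Hpd and Hal had the larger ratio in the library labelled AEG-1fl/fl and Aspg in the library labelled AEG-1DMAC. No interval was computed for these differences. Hpd and Aspg kept this direction in the other zones. Tat had the opposite one in the PC zone, at 8.7 and 5.6. So did Hal in the midlobular zone, at 2.85 and 1.35, with means of 1.27 and 0.41 counts. A zone still spans a range of the order, whose part in these ratios was not tested.

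**Figure D4:**
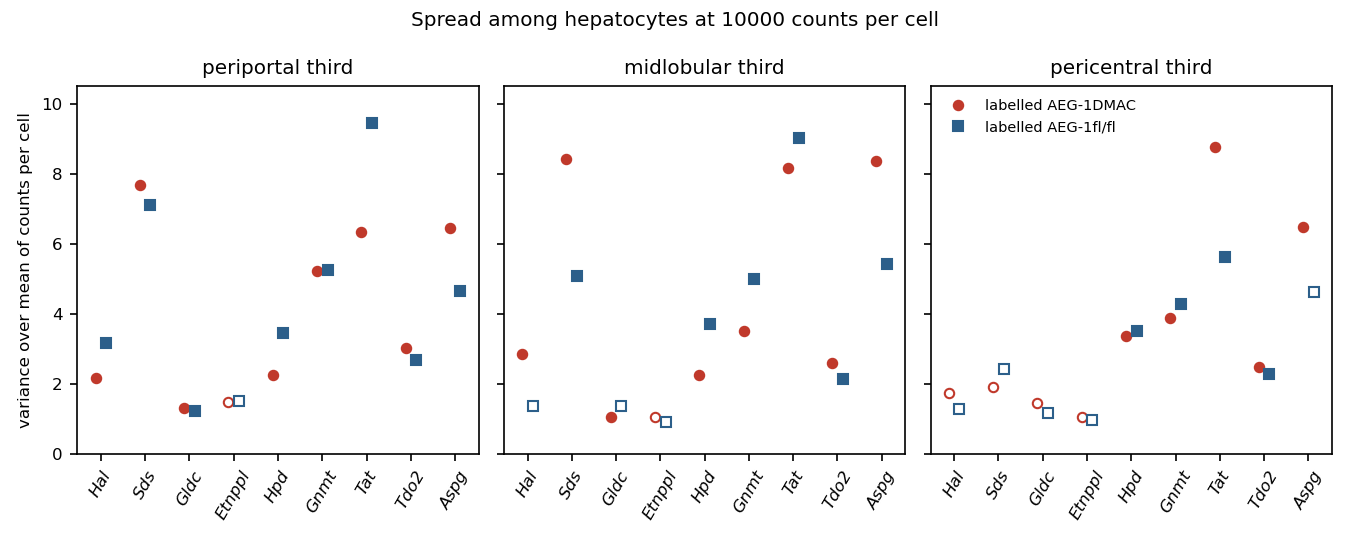
Variance over mean of the counts per hepatocyte for each enzyme in the PP, midlobular and PC zones, with every cell thinned to 10000 counts, circles for the library labelled AEG-1DMAC and squares for the library labelled AEG-1fl/fl. Open symbols mark a mean under 1 count, and the ratio depends on the mean, so that symbols are to be compared within a gene. The mean of a gene differs between libraries as well. Tat is at 8.7 and 5.6 in the PC zone. In the PP zone Tat is at 6.33 and 9.45, Aspg at 6.45 and 4.65 and Gnmt at 5.22 and 5.24.

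Within the PP zone several enzymes were high in the same cells. The Pearson correlation across cells between Hal and Sds was 0.55 in the library labelled AEG-1DMAC and 0.50 in the library labelled AEG-1fl/fl. It was 0.58 and 0.53 between Sds and Tat, 0.59 and 0.38 between Tat and Tdo2, and 0.41 and 0.57 between Tat and Aspg. Hpd and Gnmt, of tyrosine breakdown and methyl group use, had a correlation of 0.48 and 0.58. Gldc had low values in both libraries, from -0.07 and -0.04 against Aspg to 0.22 and 0.20 against Hpd, with 0.18 and 0.22 against Sds and 0.14 and 0.24 against Gnmt. Its mean was 1.96 and 1.39 counts and its variance 1.30 and 1.21 times the mean. That is little above counting error alone, which limits how high the correlations of Gldc can be. A low value was also found without Gldc, as between Gnmt and Aspg at -0.07 and 0.14. These cells shared a library, a thinned depth of 10000 counts and a range of the zone order, and the values are descriptions over 323 and 305 cells. Whether pairs of other genes have similar values was not tested.

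A further group of cells had counts like hepatocytes but a low share of their markers. These were 159 cells in the library labelled AEG-1DMAC and 136 in the library labelled AEG-1fl/fl, of a median depth of 19240 and 18620 counts, with a median of 0.978% and 0.869% mitochondrial counts (3.23% and 3.11% in hepatocytes), and Alb at 17160 and 17470 CPM (76050 and 70680 in hepatocytes). Its leading genes against hepatocytes were Nr1i3, Mlxipl and Rsrp1 in the library labelled AEG-1DMAC and Mlxipl, Lgals4 and Nr1i3 in the library labelled AEG-1fl/fl. Rsrp1, Leng8, Ccnl2 and Pabpn1 were among the 10 leading genes in both libraries. Leng8 was at 890 and 604 CPM (143 and 117 in hepatocytes) and Ccnl2 at 836 and 747 CPM (135 and 140). The group was therefore given no cell type name, and its limits were set after the data had been seen. Aspg was the enzyme that stood out in these cells. It was at 1040 CPM (1007 to 1075) in the first library and 525 CPM (500 to 552) in the second, 5.85-fold (5.63 to 6.08) and 3.56-fold (3.37 to 3.75) its level in hepatocytes. Over all zones Tat followed at 3031 and 1757 CPM, 2.39-fold and 1.85-fold the hepatocyte level. Gldc at 67.0 and 42.7 CPM and Etnppl at 22.6 and 17.4 CPM were at 53.7% to 70.2% of the hepatocyte level over all zones, and Gnmt was at 84.1% and 90.3%. The zones were mixed in other shares than among hepatocytes, as 102 of the 159 cells of the first library, and 52 of the 136 of the second, fell within the limits of the PC zone. Higher Aspg was found in each zone, with 8.21-fold, 6.90-fold and 8.89-fold from PP to PC in the first library and 5.08-fold, 3.52-fold and 3.49-fold in the second. Hal was higher in each zone as well, at 3.08-fold, 2.37-fold and 2.71-fold in the first library and 1.94-fold, 1.92-fold and 1.65-fold in the second, and so was Tat, at 1.40-fold to 2.83-fold over both libraries. Sds depended on the zone, at 2.41-fold, 3.23-fold and 0.764-fold from PP to PC in the first library. In the second it was at 1.49-fold, 0.976-fold and 0.819-fold. Etnppl within zones was at 0.849, 1.25 and 1.42 times the hepatocyte level in the first library and at 0.936, 1.08 and 1.42 times in the second. All of its intervals within zones included the hepatocyte level, and its PC values came from 30 and 9 counts. Gldc within zones was at 0.769, 0.922 and 0.998 times in the first library and at 0.742, 0.860 and 0.556 times in the second. As the low mitochondrial and Alb share moves with these values, its part in them was not tested.

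**Figure D5:**
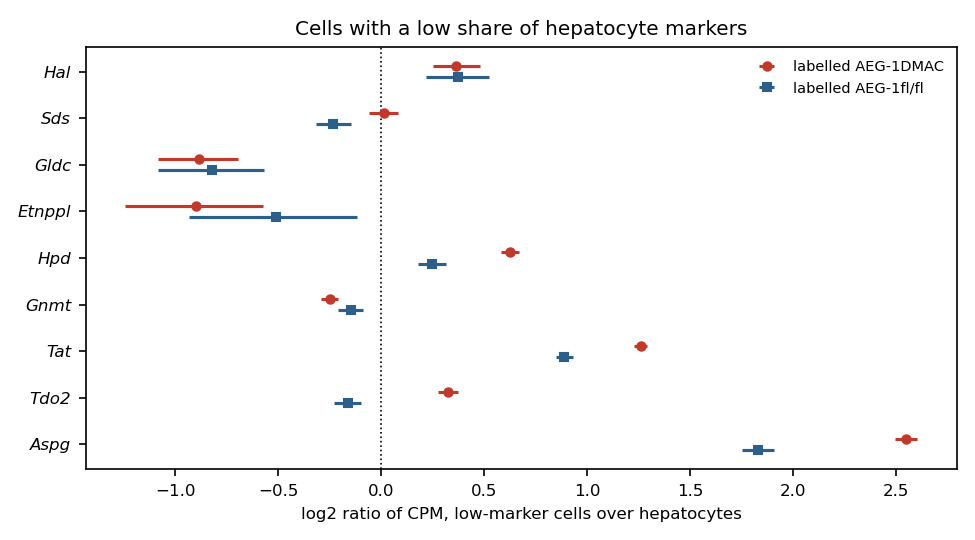
Log2 ratio of CPM in the cells with a low share of hepatocyte markers over hepatocytes of the same library, for each enzyme, with circles for the library labelled AEG-1DMAC, squares for the library labelled AEG-1fl/fl and exact binomial 95% intervals. Aspg is at 2.55 and 1.83 and Tat at 1.26 and 0.89, while Gldc and Etnppl are below 0 in both libraries over all zones. Etnppl within the PC zone is 1.42-fold the hepatocyte level in both, from 30 and 9 counts. Its log2 intervals there include 0, at -0.11 to 1.06 and -0.66 to 1.48.

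The wider set of breakdown enzymes had a smaller median than the 9. Its lists were also chosen with earlier results of these data known, so that counts over them are descriptions. Of 83 other enzymes in 9 lists by amino acid, 82 had enough counts, of which 2 were at least 1.5-fold higher in the library labelled AEG-1DMAC and none lower, beside 3.55% and 3.5% of all genes, so that the count does not stand above the background. Their median log2 ratio was 0.21. The pair was Agxt, which converts glyoxylate to glycine, at 96.4 and 43.1 CPM (log2 ratio 1.16, 1.10 to 1.23), and Cbs, the entry enzyme of transsulfuration, at 474 and 290 CPM (0.71, 0.68 to 0.74). In the zone order 5 of the 82 were at least 2-fold higher in the PP zone in both libraries, beside 0.879% of all genes, and none in the PC zone, beside 1.93%. These were Uroc1 and Amdhd1, the steps after Hal, with log2 ratios of PP over PC of 1.75 and 1.86 and of 2.02 and 1.92, Sdsl, a relative of Sds, with 3.45 and 4.20, Agxt with 1.16 and 1.85, and Got1, an aspartate aminotransferase, with 1.63 and 1.87.

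By amino acid, the histidine list (4 genes) had a median log2 ratio between libraries of 0.36, and serine, glycine and one-carbon metabolism (18 genes) one of 0.16, each with members included. Methionine and cysteine (10 genes) had a median of 0.30 and phenylalanine and tyrosine (8 genes) one of 0.36. In the tyrosine route, Hgd, the step after Hpd, was at 483 and 359 CPM (log2 ratio 0.43), while Fah, its last enzyme, was at 273 and 302 CPM (-0.15). The tryptophan list (11 genes) had a median of 0.19, with Ido2 at 0.47 and Haao at 0.35, the asparagine, aspartate and alanine list (8 genes) 0.19, with Gpt2 at -0.35 and Nit2 at 0.32, and the lysine and phosphoethanolamine list (8 genes) 0.28, with Phykpl at -0.42 and Aass at 0.34. Branched-chain amino acid breakdown (20 genes) had a median of 0.23 with no gene past 1.5-fold, the nearest being Hibadh at 0.57, Aldh6a1 at 0.45 and Ppm1k at 0.42. Proline and hydroxyproline breakdown (4 genes) had a median of 0.20, with Prodh at 0.51. Csad went the other way in the cysteine route, at 300 and 416 CPM (-0.47).

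The lists of genes that carry amino acids or respond to hormones had medians near or below 0. The 15 transporters had a median log2 ratio of -0.00, with Slc1a2, a glutamate transporter of PC cells, at 227 and 99.1 CPM (1.20), Slc16a10, a carrier of aromatic amino acids, at 104 and 67.0 CPM (0.64), and Slc6a9, a glycine transporter, at 55.6 and 91.1 CPM (-0.71). The 21 hormonal regulators and responders had a median of -0.13, with 1 gene at least 1.5-fold higher and 1 lower, close to the 3.55% and 3.5% of all genes. The lower one was G6pc, which releases free glucose, at 196 and 340 CPM (-0.80). The higher one was Tsc22d3, a glucocorticoid target, at 83.0 and 53.0 CPM (0.65), and Irs2, an adaptor of the insulin receptor, was at 20.7 and 29.0 CPM (-0.49). Pck1, a glucagon target of glucose production, was at 1932 and 2478 CPM (-0.36). Other responders of the list went both ways, with Dusp1 at 0.47 and Sgk1 at 0.24 beside Fkbp5 at -0.36 and Per1 at -0.29.

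Profiles over the 9 bins of both libraries were compared across 8044 genes by the Pearson correlation of log2(CPM + 1) over 18 points, which share libraries and the zone order. The genes most like Hal were Cryl1 (0.99), Gls2 (0.99) and Uroc1 (0.99). Sds was most like Aldh1b1 (0.99), Cryl1 (0.99) and Hsd17b6 (0.99), and Gldc most like Hsd11b1 (0.99), Gls2 (0.99) and Ass1 (0.99). For Etnppl these were Hsd11b1 (0.98), Hal (0.97) and Slc25a15 (0.97). The flatter enzymes had other neighbours. Gnmt was most like Abat (0.99), Agxt (0.98) and Aldh1l1 (0.98), and Hpd most like Ahcy (0.98), Haao (0.96) and Gstz1 (0.94). Tat was nearest to Nnmt (0.96), Pxmp2 (0.94) and Aass (0.94), although within the library labelled AEG-1DMAC alone these were 0.73, 0.76 and 0.79. Within that library the values for Hpd were 0.87, 0.82 and 0.90. Tdo2 was nearest to Plg (0.98), Cbs (0.97) and Aldh1l1 (0.96), and Aspg to Ftcd (0.97), Wsb1 (0.96) and Sdsl (0.94). Among the 9 themselves, the correlation was highest between Hal and Sds (0.99) and lowest between Hpd and Aspg (0.21).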

How the data were processed

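Single-cell RNA-Seq libraries of fixed, dissociated liver were made with a mouse transcriptome probe kit. Per the file headers, the authors counted reads with Cell Ranger 7.1.0 (the methods name another release), using mm10, and the deposited values are raw counts per gene and cell, not normalized. The study's own test on cells (MAST) was not used, since cells are not replicates.

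Cells needed 100 detected genes or more and a mitochondrial share of 10% or less, which kept more cells than the study's text states. Gates used summed marker counts per 10000 counts. Hepatocytes had at least 600 from 10 markers, at least 4000 counts and under 50% of every other class's limit. Other classes had at least 3 markers and a limit of 60 (macrophages), 40 (endothelial, stellate), 30 (B cells, neutrophils) or 7.5 (cholangiocytes, T and NK cells). Cells past 2 limits, and cycling cells, were set aside. Dendritic cells had no marker list. The low-marker group had a hepatocyte marker share of 300 to 600. These limits were set after the data were seen. Doublets were kept.

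Counts were summed for each library and class and given as CPM with exact Poisson 95% intervals, and ratios with Clopper-Pearson intervals of the 2 counts. Zones were ordered by log2((Cyp2e1 + 1)/(Cyp2f2 + 1)) and cut in 3 zones and 9 bins. Background shares used genes with at least 200 counts over both libraries in hepatocytes (zones, 200 in each; classes, 200 over the 7 classes with at least 100000 counts). Named genes were the 9 enzymes, up to 3 genes for each list with the largest log2 ratio, and the 3 nearest profiles among genes with at least 500 hepatocyte counts in each library. Got1, Fah and Pck1 are named beyond that rule, for their place in the pathways. Dusp1, Sgk1, Fkbp5 and Per1 are named to give both directions among hormone responders. The members and lists were chosen with earlier results of these data known. The code ran on Python 3.11.15 with pandas 2.3.3, SciPy 1.17.1 and NumPy 2.4.6, and was tested on simulated data. Gene positions are from GENCODE on GRCm38 and promoters from RefSeq on GRCm38.p6.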

Additional observations from a re-analysis of the deposited data

Results flagged for a closer look

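Hpd was higher at opposite ends of the lobule in the 2 libraries. Its log2 ratio of PP over PC was -0.37 in the library labelled AEG-1DMAC and 0.30 in the library labelled AEG-1fl/fl. The difference between the libraries was not tested, since each label has 1 library. The sign held in each library under all 7 alternatives, with values of -0.47 to -0.33 in the first and 0.09 to 0.38 in the second. Over all genes the median of this log2 ratio was -0.26 in the first library and -0.18 in the second.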

How the results depend on the processing

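All 9 enzymes were highest in hepatocytes under each of 5 alternatives. Between 4 and 5 of the 9 were past 2-fold in the zone order. Aspg was the enzyme lost when cells were thinned to 10000 counts (131 and 169 hepatocytes left out), without the tenth of hepatocytes with the most counts, and with low-marker cells joined. The median log2 ratio between libraries was 0.69. It was 0.65 with the stricter gate (637 and 615 hepatocytes), 0.66 with the filter raised to 500 genes and 5% mitochondrial counts, 0.73 with zones weighted equally and 0.74 without the cells with the most counts. It ranged from 0.65 to 0.74 over 8 alternatives, under each of which all 9 were above a ratio of 1 and 5 or 6 were at least 1.5-fold higher. Joining low-marker cells and leaving out the shared barcodes were chosen after seeing the data. No sign of a zone or library ratio of the 9 was reversed. No paired analysis was possible because each label has 1 library. Nor could a library be left out, so that the spread between mice is unknown and no depth of sequencing supplies it.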
